A study of Mus musculus with 6 samples.

Results

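Skeletal muscle contractile genes were followed in skin of wildtype and YAP2-5SA-ΔC mice. The 37 genes encode the proteins with which striated muscle contracts, and all 37 were found among the 26579 genes of the count table by their Ensembl identifiers in GENCODE M21 (mouse build GRCm38). The genes were listed by function and not by their values. They comprise 14 genes typical of fast fibres, 7 typical of slow fibres, 2 developmental myosins (*Myh3* and *Myh8*) and 14 genes that both fibre types use. Of these, 36 passed the filter of 1 CPM (counts scaled to library size) or more in 3 libraries or more, and these were tested. *Myh3*, the embryonic myosin heavy chain, was the exception, with 2 to 14 counts per library.

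The study asked how YAP activity in the epidermis changes gene expression in the skin. RNA-Seq was carried out on whole skin biopsies of the dorsal neck of 3 wildtype and 3 YAP2-5SA-ΔC littermates, all female and 33 days old. YAP is a transcriptional coactivator that is held in check by the Hippo kinase pathway. YAP2-5SA-ΔC mice express a mildly active mutant form of it in basal keratinocytes, so the transgene was directed to the epidermis and not to muscle. The background strain and the place of each punch within the neck are not given in the sources used here, and it is not stated how much of the muscle layer each biopsy held.

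Mouse skin carries a thin sheet of striated muscle, the panniculus carnosus, beneath the dermis and fat, and a skin sample can hold more or less of it. In a muscle fibre, myosin thick filaments pull on actin thin filaments that are anchored at the Z-disc. Calcium released from the sarcoplasmic reticulum starts the pull by binding to troponin on the thin filament. Fast and slow fibres build the same machine from different gene copies, so the myosins, troponins and calcium pumps present in a tissue record its mix of fibres.

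Total counts ranged from 11225705 to 19505036 per library, and CPM values were scaled with TMM. Of 7 heart muscle markers, *Myh6* was at 0 to 0.177 CPM, and *Nppa* and *Myl7* were at 0 in 5 of 6 libraries each. *Tnnt2* and *Actc1* passed the filter, with *Tnnt2* at 1.82 to 3.04 CPM in all libraries, which is near the level of the least abundant slow gene, *Myl3*, at 0.55 to 1.94 CPM. *Actc1*, an actin that skeletal muscle also makes, reached 16.6 CPM in wildtype replicate 2. *Yap1* had 142, 125 and 126 CPM in wildtype and 136, 144 and 130 CPM in YAP2-5SA-ΔC skin. Its log2 fold change was 0.06 (SE 0.07, FDR = 0.635, edgeR quasi-likelihood test). Whether the table counts transgene reads here is not given in the sources used. Over all 15102 genes tested, the same test called 288 at an FDR below 0.05, of which 218 were higher and 70 lower in YAP2-5SA-ΔC skin.

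The short sequences upstream of 5 of the genes are shown because the CAGCTG core, a form of the E-box to which the MyoD family of myogenic factors binds, was the most frequent of 3 muscle motifs searched. RefSeq promoter sequences (GRCm38.p6, 250 bases before to 50 bases after the start) were matched for 30 of the 37 genes. CAGCTG, which reads the same on both strands, was present in 14 of the 30 (46.7%), against 18.3% of the promoters of all 27025 genes in the table. CACCTG, another E-box core searched on both strands, was found in 8 (26.7%) against 22.6%. TAAAAATA, a core of MEF2 sites, was found in 2 (6.67%) against 3.09%. Each line gives 30 bases, 5′ to 3′ on the strand of the gene, with CAGCTG in capitals.
*Acta1*, skeletal muscle actin, chr8:123894979-123895008, minus strand: gggaggggcagaCAGCTGgggatactctcc
*Ckm*, muscle creatine kinase, chr7:19410844-19410873, plus strand: cCAGCTGtcccccgccagctagactcagca
*Myh4*, fast myosin heavy chain IIb, chr11:67237733-67237762, plus strand: ccgcagctaggaCAGCTGaggtggctgctg
*Mylpf*, fast regulatory light chain, chr7:127211545-127211574, plus strand: cttcctgggctcCAGCTGctgcaggcctcc
*Tnni1*, slow troponin I, chr1:135799341-135799370, plus strand: gggaaggaggggCAGCTGgaggggcagcgg
The motif was present in genes of fast fibres, of slow fibres and of both. It ended 45 bases before the start of *Mylpf* and 243 bases before the start of *Ckm*.

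Muscle transcripts varied several-fold between mice of the same genotype, and the genotypes overlapped. The 37 genes together took 0.540% of all counts in wildtype replicate 1, 2.29% in replicate 2 and 1.80% in replicate 3. In YAP2-5SA-ΔC skin they took 1.29% in replicate 1, 0.901% in replicate 2 and 0.519% in replicate 3. Wildtype replicate 1 and YAP2-5SA-ΔC replicate 3 were therefore both low, and wildtype replicates 2 and 3 were high. The widest 95% Wilson interval of these shares, that of wildtype replicate 3, ran from 1.80% to 1.81%, and the intervals cover counting error only. The mean share was 1.54% ± 0.903 (SD, n = 3) in wildtype and 0.902% ± 0.384 (SD, n = 3) in YAP2-5SA-ΔC skin. In bulk skin, fewer muscle fibres and less RNA per fibre cannot be told apart.

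**Figure D1:**
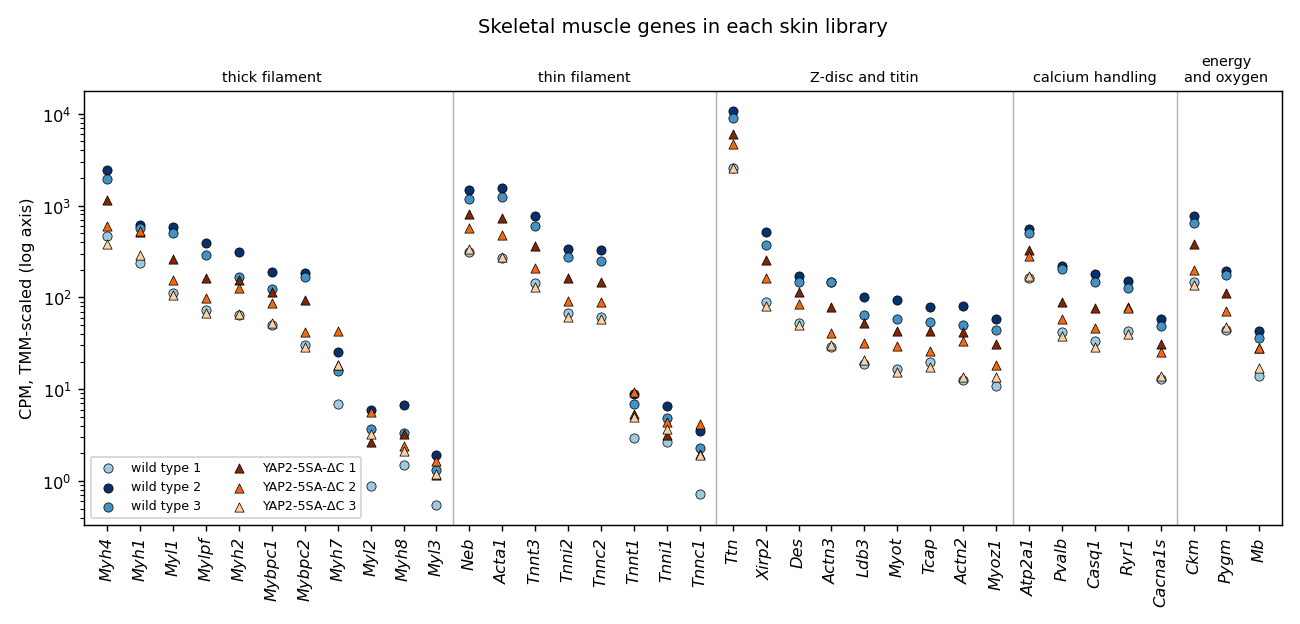
CPM (log axis) of the 36 skeletal muscle genes that passed the count filter, grouped by role, with 1 point for each of the 6 libraries (circles wildtype, triangles YAP2-5SA-ΔC). Wildtype replicate 2 was the highest library for 32 of the 36 genes, and wildtype replicate 1 or YAP2-5SA-ΔC replicate 3 was the lowest for all of them.

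The fast and shared genes kept nearly the same order of libraries from gene to gene. Wildtype replicate 2 was highest for 32 of the 36 genes tested. Wildtype replicate 3 was highest for *Actn3*, and YAP2-5SA-ΔC replicate 2 for the slow genes *Myh7*, *Tnnt1* and *Tnnc1*. The lowest library was wildtype replicate 1 for 21 genes and YAP2-5SA-ΔC replicate 3 for 15. Across pairs of the 36 genes, the median Pearson r of log2 CPM over the 6 libraries was 0.96, which is a description of these libraries and not a test, since all genes of a library share its dissection and depth. The lowest r of a pair was 0.22, and the lowest r of a gene with the mean of the 36 was 0.45 (*Myh7*).

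Within wildtype skin the median SD of log2 CPM was 1.22 over the 36 genes, against 0.115 over all genes tested. Of all genes tested, 99.6% had a wildtype SD below that median. Within YAP2-5SA-ΔC skin the median SD was 0.632, against 0.132 over all genes tested, and 96.3% of those lay below it. The highest wildtype library exceeded the lowest by a median of 4.94-fold, with a range from 2.5-fold (*Tnni1*) to 6.66-fold (*Myl2*). In YAP2-5SA-ΔC skin the same ratio had a median of 2.36, from 1.37 (*Tnni1*) to 3.25 (*Mybpc2*). Without wildtype replicate 1 the wildtype median SD was 0.228, so this 1 library set most of the spread. Without wildtype replicate 3, and with replicate 1 kept, it was 1.62.

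No muscle gene passed edgeR's quasi-likelihood test with Benjamini-Hochberg adjustment. None of the 36 genes was called at an FDR below 0.05, where 1.91% of all genes tested were called. None had an unadjusted p below 0.05, against 26.3% of all genes tested, and their FDR ran from 0.207 (*Pvalb*) to 0.935 (*Myl3*). The log2 fold change was negative for 31 genes and positive for 5 (*Myh7*, *Tnnc1*, *Myl2*, *Tnnt1* and *Myl3*, all of slow fibres), with a median of -0.80 against -0.01 over all genes tested. The genotypes overlapped for all 36 genes, whereas for 18.2% of all genes tested every YAP2-5SA-ΔC library lay below every wildtype library and for 15.5% above.

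The test used in the study, edgeR's likelihood-ratio test with common and tagwise dispersions, called 1 of the 36 genes, *Pvalb* (FDR = 0.0369), where it called 10.4% of all genes tested. With that test 16 of the 36 genes had an unadjusted p below 0.05, against 20.0% of all genes tested. DESeq2 called 0 of 36 (10.5% of all genes), with 0 at an unadjusted p below 0.05 (21.5% of all genes). Voom called 0 of 36 (1.65% of all genes), also with 0 at an unadjusted p below 0.05 (26.4% of all genes). Without wildtype replicate 1, the median log2 fold change was -1.21 and 30 of the 36 genes had an unadjusted p below 0.05, against 25.7% of all genes tested. The quasi-likelihood test still called 0 of the 36 after adjustment, where 0.949% of all genes tested were called. The median lay between -1.21 and -0.38 across the fits with 1 library left out, and the value nearest 0 was that without wildtype replicate 2.

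**Figure D2:**
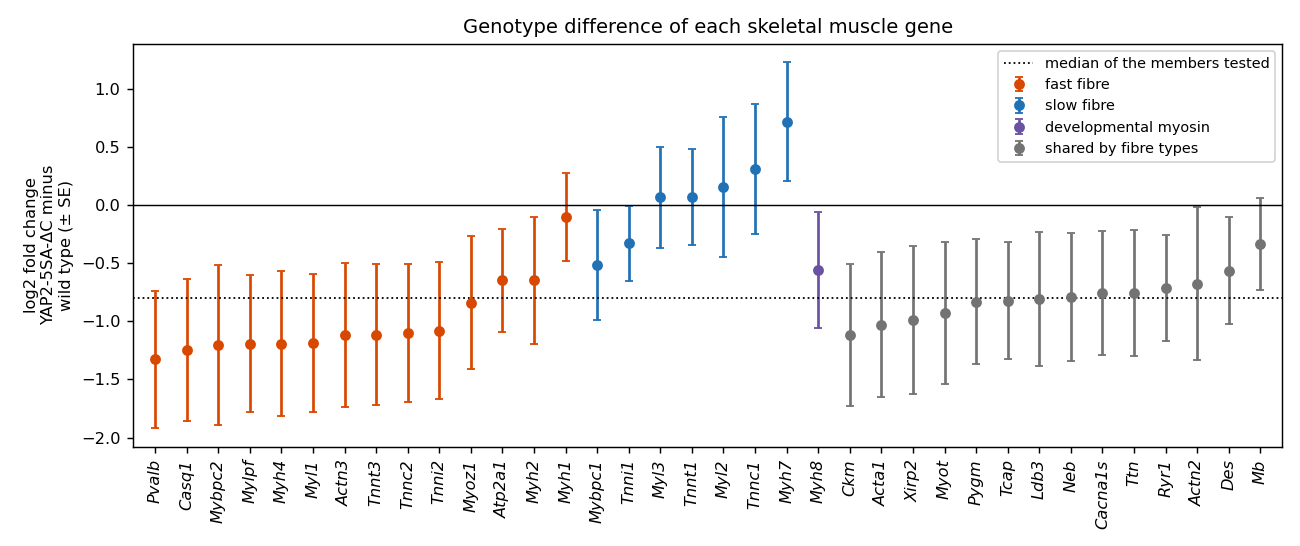
Log2 fold change (YAP2-5SA-ΔC minus wildtype, points) with its standard error (bars) for the 36 genes tested, coloured by fibre type, from edgeR's quasi-likelihood test. Fast and shared genes lie below 0, 5 of the 7 slow genes lie above 0, and none passed an FDR of 0.05.

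The thick filament is made of myosin heavy chains, which are the motors, and of light chains that stabilise them. *Myh4* (ENSMUSG00000057003), the heavy chain of the fastest fibres, lies on chromosome 11 from 67238029 to 67260446 in a cluster with *Myh1*, *Myh2*, *Myh3* and *Myh8*. It had 463, 2412 and 1968 CPM in wildtype replicates 1, 2 and 3 and 1144, 596 and 379 CPM in YAP2-5SA-ΔC replicates 1, 2 and 3. Both genotypes had low and high libraries, and wildtype replicate 1 lay within the transgenic range. The log2 fold change was -1.19 (SE 0.63, FDR = 0.27, edgeR quasi-likelihood test).

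*Myh1*, the heavy chain of type IIx fibres, was flatter. It had 234, 615 and 569 CPM in wildtype and 513, 522 and 288 CPM in YAP2-5SA-ΔC skin, with a log2 fold change of -0.10 (SE 0.38, FDR = 0.886, edgeR). *Myh2*, that of fast oxidative type IIa fibres, had 63.8, 310 and 167 CPM in wildtype and 153, 126 and 66.5 CPM in YAP2-5SA-ΔC skin. The transgenic libraries of both genes lay inside the wildtype range. Reads that map to several of these near-identical myosins were not counted, so their levels relative to each other are uncertain.

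*Myh7* (ENSMUSG00000053093), the slow heavy chain, lies on chromosome 14 from 54970684 to 54994626. It had 6.93, 25.6 and 15.8 CPM in wildtype and 18.2, 42.8 and 18.5 CPM in YAP2-5SA-ΔC skin. YAP2-5SA-ΔC replicate 2 was the highest of all, the other transgenic libraries lay within the wildtype range, and the log2 fold change was 0.71 (SE 0.51, FDR = 0.41, edgeR). The antisense gene *Mhrt* overlaps *Myh7*, and since the strand setting of the counting is not given in the sources used here, reads of the pair may not have been separated.

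The fast light chains *Mylpf* and *Myl1* had log2 fold changes of -1.19 each, and the slow light chains *Myl2* and *Myl3* of 0.15 (SE 0.60) and 0.07 (SE 0.44). *Myl3* rested on 10 to 37 counts per library and *Myl2* on 16 to 112. *Mylpf* and *Myl1*, with more counts, had an SE of 0.59 each. *Mybpc2*, the fast myosin-binding protein C, had 30.6, 186 and 165 CPM in wildtype and 94.4, 41.9 and 29.0 CPM in YAP2-5SA-ΔC skin. This gene had the largest wildtype SD of log2 CPM among the 36, 1.45. *Mybpc1*, its slow counterpart, was much more abundant than the other slow genes, at 50.5 to 191 CPM in wildtype and 52.8 to 115 CPM in YAP2-5SA-ΔC skin. *Myh8*, the perinatal heavy chain, had 1.48 to 6.65 CPM in wildtype and 2.12 to 3.28 CPM in YAP2-5SA-ΔC skin.

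On the thin filament, *Acta1* (ENSMUSG00000031972), the skeletal muscle actin, had the highest level per kilobase of exon of the 37 genes, 659 CPM per kilobase in wildtype and 323 in YAP2-5SA-ΔC skin on average. It had 268, 1535 and 1235 CPM in wildtype and 734, 482 and 273 CPM in YAP2-5SA-ΔC skin. Wildtype replicate 1 and YAP2-5SA-ΔC replicate 3 were thus nearly equal, and the log2 fold change was -1.03 (SE 0.62, FDR = 0.332, edgeR).

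The troponins make contraction depend on calcium. The fast *Tnnt3*, *Tnni2* and *Tnnc2* had log2 fold changes of -1.11, -1.08 and -1.10. The slow *Tnnt1*, *Tnni1* and *Tnnc1* had values of 0.07, -0.33 and 0.31, all of them smaller than their standard errors apart from that of *Tnni1* (SE 0.32). None of the 6 was called, and *Tnnc1* (13 to 71 counts per library) and *Tnnc2* each overlap a gene on the other strand, *Nisch* and *Ube2c*. *Neb*, nebulin, which sets thin filament length, had 313 to 1458 CPM in wildtype and 338 to 799 CPM in YAP2-5SA-ΔC skin.

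At the Z-disc, *Ttn*, titin, the molecular spring that spans from the Z-disc to the middle of the sarcomere, took the most counts of any of the genes. It alone held 0.264%, 1.06% and 0.849% of the library in wildtype and 0.622%, 0.466% and 0.256% in YAP2-5SA-ΔC skin. Per kilobase its average level was lower, 63.9 CPM in wildtype and 37.8 CPM in YAP2-5SA-ΔC skin, because its exons sum to 116825 bases. All 9 genes of the group (*Ttn*, *Actn2*, *Actn3*, *Tcap*, *Myoz1*, *Des*, *Myot*, *Ldb3* and *Xirp2*) had negative log2 fold changes, with a median of -0.82 and values from -1.12 to -0.56. The fast α-actinin *Actn3*, which cross-links actin at the Z-disc, had 28.9, 148 and 149 CPM in wildtype and 78.5, 40.9 and 30.5 CPM in YAP2-5SA-ΔC skin. *Des*, desmin, the intermediate filament that ties Z-discs together, spanned less, from 52.0 to 170 CPM in wildtype and from 49.8 to 116 CPM in YAP2-5SA-ΔC skin.

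Among calcium handling genes, *Pvalb* (ENSMUSG00000005716, chromosome 15 from 78191114 to 78206400) encodes parvalbumin, a calcium buffer that speeds relaxation of fast fibres. It had 42.0, 219 and 203 CPM in wildtype and 88.2, 58.4 and 38.0 CPM in YAP2-5SA-ΔC skin. Its log2 fold change of -1.33 (SE 0.59, FDR = 0.207, edgeR quasi-likelihood test) was the largest of the 36 genes. *Casq1*, calsequestrin, which stores calcium in fast fibres, followed with -1.25 (SE 0.61). *Atp2a1*, the fast calcium pump, had -0.65 (SE 0.45), and the release channel *Ryr1* and its voltage sensor *Cacna1s* had -0.71 and -0.76.

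Of the genes for energy and oxygen supply, *Ckm*, muscle creatine kinase, had 147, 769 and 642 CPM in wildtype and 378, 201 and 138 CPM in YAP2-5SA-ΔC skin. The log2 fold change of *Ckm* was -1.12 (SE 0.61, FDR = 0.287, edgeR). *Pygm*, which breaks down glycogen in muscle, had -0.83 (SE 0.54). *Mb*, myoglobin, which holds oxygen and is most abundant in oxidative fibres, had -0.34 (SE 0.40), with 14, 42.7 and 35.9 CPM in wildtype and 27.8, 28.2 and 17.1 CPM in YAP2-5SA-ΔC skin.

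Per kilobase, fast fibre genes were on average more abundant than slow fibre genes in every library, and this excess was smaller in 2 of the 3 YAP2-5SA-ΔC libraries. The 14 fast genes all had negative log2 fold changes between the genotypes, with a median of -1.12. For the 7 slow genes the median was 0.07, with 5 positive and 2 negative, and for the 14 shared genes it was -0.80. The mean log2 CPM per kilobase of the fast genes exceeded that of the slow genes by 4.85, 5.28 and 5.54 in wildtype and by 5.07, 3.73 and 3.87 in YAP2-5SA-ΔC skin. Replicates 2 and 3 of the transgenic mice lay below every wildtype library, while replicate 1 lay within the wildtype range. The genotype means were 5.22 ± 0.35 and 4.22 ± 0.73 (SD, n = 3 each). Among the wildtype libraries the excess was lowest in replicate 1, which held the least muscle RNA of the 3, and the part of muscle content in this excess was not tested. At a similar muscle share of 0.540% and 0.519%, wildtype replicate 1 and YAP2-5SA-ΔC replicate 3 had an excess of 4.85 and 3.87. That comparison holds only 1 library of each genotype.

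**Figure D3:**
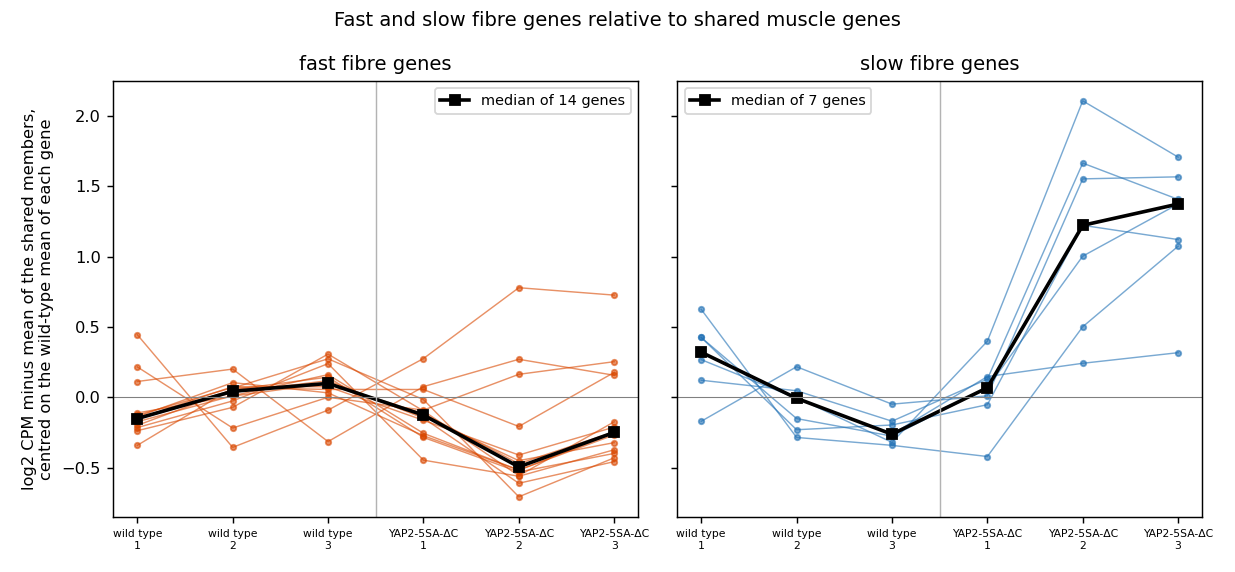
Log2 CPM of the 14 fast (left) and 7 slow (right) genes in each library after subtracting the mean log2 CPM of the 14 shared muscle genes, centred on the wildtype mean of each gene. Thin lines join the values of 1 gene, black squares give the median, and the libraries have no order within a genotype. The median of the slow genes is highest in YAP2-5SA-ΔC replicates 2 and 3, and that of YAP2-5SA-ΔC replicate 1 lies near wildtype.

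Each gene was also taken relative to the mean log2 CPM of the 14 shared genes in the same library. This comparison was added after the data had been seen. For every slow gene but *Myl2*, the highest wildtype value on this scale was that of replicate 1, the wildtype library with the least muscle RNA. The part of muscle content in these relative values was not tested. On this scale *Myh7* had -3.02, -3.35 and -3.66 in wildtype and -2.95, -1.24 and -1.64 in YAP2-5SA-ΔC skin. *Tnnc1* had -6.10, -6.17 and -6.39 in wildtype and -6.09, -4.56 and -4.82 in YAP2-5SA-ΔC skin. For both genes the transgenic libraries all lay above the wildtype ones, but replicate 1 of the transgenic mice only by 0.078 for *Myh7* and 0.0078 for *Tnnc1*. These were 2 of the 7 slow genes, where 0.755% of all genes tested behaved so. *Mylpf*, *Myl1*, *Tnni2*, *Tnnc2*, *Pvalb* and *Casq1*, 6 of the 14 fast genes, lay below wildtype in every transgenic library, where 0.199% of all genes tested did. The separation was 0.0055 for *Tnni2* and 0.010 for *Tnnc2*, and at most 0.158 (*Pvalb*). Of the 74 other muscle genes tested, 3 lay below and 2 above wildtype in every transgenic library. Most skin genes do not follow the muscle content, so this background is low by construction.

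*Pvalb* had relative log2 levels of -0.44, -0.26 and 0.01 in wildtype and -0.68, -0.79 and -0.60 in YAP2-5SA-ΔC skin. *Myh1* went the other way from most fast genes, with 2.03, 1.23 and 1.5 in wildtype and 1.86, 2.37 and 2.31 in YAP2-5SA-ΔC skin. In this gene, too, replicate 1 of the transgenic mice lay within the wildtype range and replicates 2 and 3 lay above it. With the mean of the shared genes as a covariate beside genotype, edgeR's quasi-likelihood test called 0 of the 21 fast and slow genes, where 0.0728% of all genes tested were called. All 7 slow genes had positive log2 fold changes in that fit, with a median of 0.57 and the largest for *Myh7*, 1.33 (SE 0.45, FDR = 0.181). The fast genes had a median of -0.22 and ran from -0.41 (*Pvalb*, FDR = 0.164) to 0.39 (*Myh1*, FDR = 0.165). Of the 21 genes, 5 fast genes and 1 slow gene had an unadjusted p below 0.05, against 20.9% of all genes tested.

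The shares of the myosin heavy chains were also taken within their gene family, with the limits that reads shared by these near-identical genes were not counted and that *Mhrt* overlaps *Myh7*. Of the counts per kilobase on the 6 heavy chain genes, *Myh4* held 62.2%, 73.6% and 74.0% in wildtype and 64.5%, 48.5% and 52.5% in YAP2-5SA-ΔC skin. *Myh1* held 29.8%, 17.8% and 20.2% in wildtype and 27.4%, 40.2% and 37.7% in YAP2-5SA-ΔC skin. The ratio of *Myh4* to *Myh1* was 2.09, 4.14 and 3.65 in wildtype and 2.36, 1.21 and 1.39 in YAP2-5SA-ΔC skin, so that the genotypes overlapped through wildtype replicate 1 and YAP2-5SA-ΔC replicate 1. *Myh7* held 0.650%, 0.546% and 0.414% in wildtype and 0.716%, 2.43% and 1.79% in YAP2-5SA-ΔC skin. The share of *Myh7* did not overlap between the genotypes, although YAP2-5SA-ΔC replicate 1 was close to wildtype replicate 1. *Myh2* held 5.30% to 8.64%, and *Myh8* and *Myh3* held at most 0.150% and 0.0666%.

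**Figure D4:**
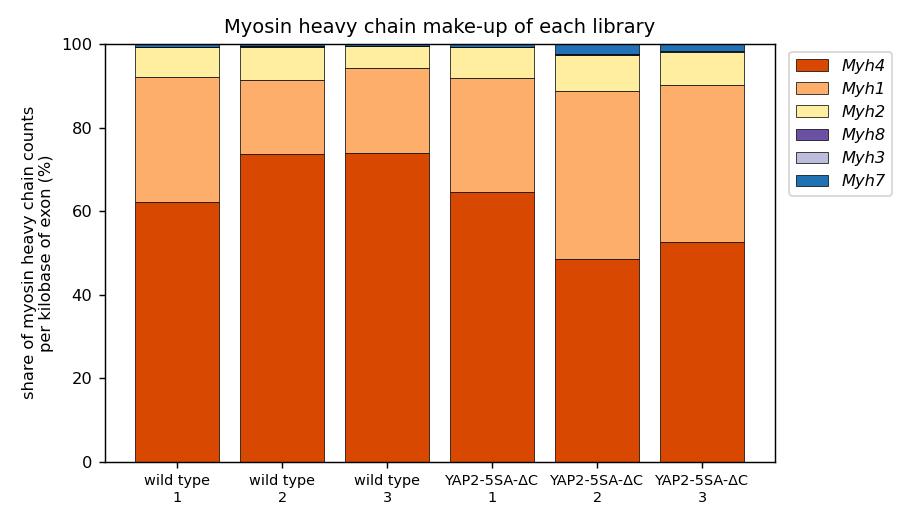
Share (%) of each myosin heavy chain gene in the heavy chain counts per kilobase of exon, by library. *Myh4* fills 62.2% to 74.0% of the wildtype bars and 48.5% to 64.5% of the YAP2-5SA-ΔC bars, and *Myh7* is visible mainly in YAP2-5SA-ΔC replicates 2 and 3.

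Fast genes moved together across the libraries more closely than slow genes did. The median Pearson r over the 6 libraries was 0.99 among the 14 fast genes, 0.98 among the 14 shared genes and 0.88 among the 7 slow genes. Between slow and fast genes it was 0.60, with a range from 0.22 to 1.00. These are descriptions over 6 libraries that share their depth and dissection between genes.

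Other genes of skeletal muscle gave mostly negative values too, and none was called. Of 87 such genes in 6 lists, 74 were tested, 0 were called by edgeR's quasi-likelihood test (1.91% of all genes tested) and 10 had an unadjusted p below 0.05 (26.3% of all genes tested). Of the 74, 70 had negative log2 fold changes, with a median log2 fold change of -0.61. The median was -0.66 for 23 other sarcomere genes, -0.71 for 14 other calcium handling genes and -0.48 for 16 metabolic genes. It was -0.53 for 10 genes of the membrane and the neuromuscular junction and -0.34 for 5 myogenic and satellite cell genes. Apart from the 6 atrophy genes, 1 of these genes, the tropomyosin *Tpm3*, which non-muscle cells also make, had genotypes that did not overlap, with every YAP2-5SA-ΔC library above every wildtype library (15.5% of all genes tested).

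*Sln*, sarcolipin, which restrains the calcium pump, had 0.275, 3.77 and 2.00 CPM in wildtype and 1.11, 0.471 and 0.187 CPM in YAP2-5SA-ΔC skin. *Ampd1*, the muscle AMP deaminase, had 4.51, 40.4 and 28.7 CPM in wildtype and 12.4, 6.24 and 4.12 CPM in YAP2-5SA-ΔC skin. *Mstn*, myostatin, the secreted brake on muscle growth, had 4.01, 26.3 and 23.8 CPM in wildtype and 9.57, 4.12 and 3.49 CPM in YAP2-5SA-ΔC skin. All 3 genes were low in wildtype replicate 1 and high in the other wildtype libraries, and their log2 fold changes were -1.74 (SE 0.90), -1.69 (SE 0.75) and -1.64 (SE 0.69). Their FDR ran from 0.188 (*Mstn*) to 0.264 (*Sln*) in the quasi-likelihood test of edgeR.

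Further genes named by the rule were *Mybph* and *Smpx* of the sarcomere, *Sypl2* of the triad, *Pgam2* of glycolysis, *Cav3* of the membrane and the myogenic factor *Myf6*. Their log2 fold changes ran from -1.33 (*Mybph*) to -0.90 (*Cav3*) and none was called. The determination factors *Myod1* and *Myf5* and the satellite cell gene *Pax7* stayed below 1 CPM in every library and were not tested.

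The genes outside all lists whose levels over the 6 libraries were most like the mean of the 36 genes were *Sh3bgr*, *Abcb4*, *Nctc1*, *Shisa4* and *Fhl1*, followed by *1110002E22Rik*, *Dhrs7c*, *2310002L09Rik*, *Ppp1r3a* and *Fbxo40*. Their Pearson r ran from 0.989 to 0.993, among 526 genes with a range of at least 2 in log2 CPM. *Fhl1*, the most abundant of them, had 87.3, 351 and 233 CPM in wildtype and 201, 147 and 89.1 CPM in YAP2-5SA-ΔC skin, with wildtype replicate 1 and YAP2-5SA-ΔC replicate 3 again lowest.

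The summed markers of other tissues in the biopsy did not follow the order of the libraries seen for muscle genes. The summed level of 7 smooth muscle markers, which include *Acta2* and *Myh11*, was 316 to 373 CPM in wildtype and 267 to 326 CPM in YAP2-5SA-ΔC skin, and 7 white fat markers, which include *Adipoq* and *Plin1*, summed to 697 to 873 CPM and to 635 to 932 CPM. *Acta2* was lower in every YAP2-5SA-ΔC library than in any wildtype library and *Myh11* higher in every one. Of the 7 smooth muscle markers, 3 were lower in this way (18.2% of all genes tested) and 1 was higher (15.5%). None of the smooth muscle or white fat markers was called by edgeR's quasi-likelihood test, with an unadjusted p below 0.05 for 4 smooth muscle and 0 white fat markers. Of all genes tested, 26.3% had such a p and 1.91% were called. These are the shares to set beside the marker counts of those kinds here and in the next paragraph. The 6 hair markers, among them the inner root sheath keratins *Krt25* and *Krt27*, were lower in every YAP2-5SA-ΔC library than in any wildtype library (18.2% of all genes tested). They summed to 11646, 14243 and 13571 CPM in wildtype and 6208, 1291 and 7967 CPM in YAP2-5SA-ΔC skin, with 0 of 6 called and 5 at an unadjusted p below 0.05. The lowest hair level was that of YAP2-5SA-ΔC replicate 2, which also had the highest *Myh7*. The basal keratinocyte markers summed to 3163 to 3776 CPM in wildtype and 5203 to 6546 CPM in YAP2-5SA-ΔC skin, with *Krt14* called (log2 fold change 0.95, FDR = 0.03, edgeR) and *Krt5* not (log2 fold change 0.72, FDR = 0.0805). The part of these shifts in tissue make-up in the muscle values was not tested.

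Fibroblast markers (*Col1a1*, *Col1a2* and 4 others) summed to 9449 to 12801 CPM in wildtype and 12256 to 15936 CPM in YAP2-5SA-ΔC skin, with 0 of 6 called and 3 at an unadjusted p below 0.05. Of 6 macrophage markers, all were higher in every YAP2-5SA-ΔC library (15.5% of all genes tested). *Csf1r* and *Mrc1* were called, where 1.91% of all genes tested were, while *Adgre1* had an FDR of 0.0635. Schwann cell markers, which include *Mbp*, and endothelial markers (*Pecam1*, *Cdh5* and 2 others) had 0 called, with 1 of each list at an unadjusted p below 0.05.

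**Figure D5:**
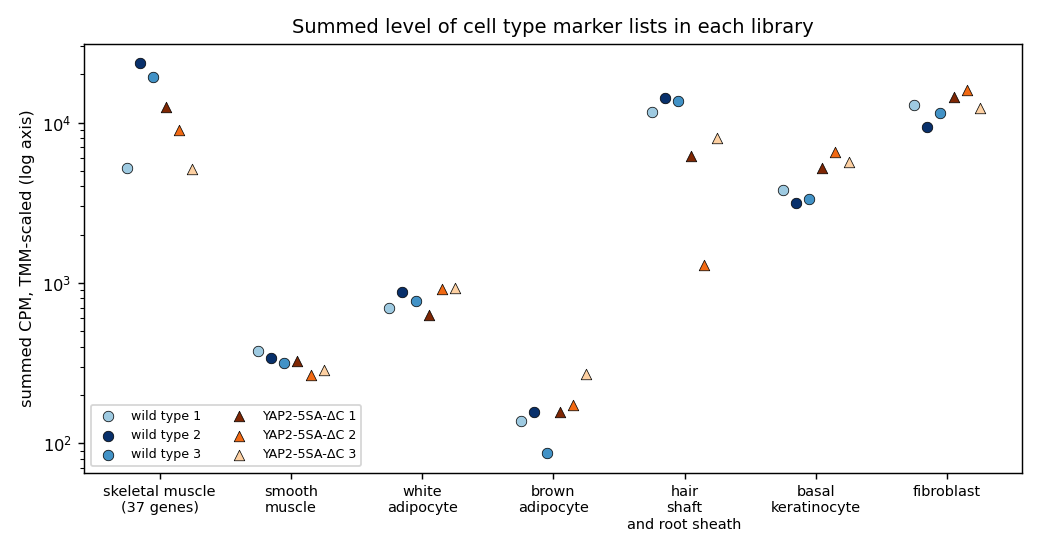
Summed CPM (log axis) of the 37 skeletal muscle genes and of 6 marker lists of other tissues in each library (circles wildtype, triangles YAP2-5SA-ΔC). The muscle sum runs from 5164 to 23373 CPM with overlapping genotypes, whereas the hair markers are lower and the basal keratinocyte markers higher in every YAP2-5SA-ΔC library.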

How the data were processed

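The authors aligned read pairs to GRCm38 with TopHat2 and Bowtie2 (2.0.12 and 2.1.0 in the submitters' processing notes), ran HTSeq on the unique alignments, and deposited 1 table of raw counts. The annotation release and strand setting are not given in the sources used here. The labels name a total RNA kit, while the methods describe mRNA libraries. Of the 26579 identifiers, 26021 had a name in GENCODE M21.

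From the counts, genes reaching 1 CPM in 3 or more libraries were scaled with TMM and tested with glmQLFit and glmQLFTest of edgeR 4.0.16 (R 4.3.3, legacy=FALSE) on 3 against 3 libraries, with Benjamini-Hochberg adjustment (FDR) at 0.05. The SE of a log2 fold change is its absolute value over the root of F. Log2 CPM used a prior count of 2, and levels per kilobase used the summed exon length. Alternatives included limma 3.58.1, DESeq2 1.42.0, other scalings and filters, each library left out and a replicate block. The tests were run on simulated counts first. The p-values set the difference between genotypes against the spread between these mice.

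The genes and lists were chosen with earlier results of these data known. Named were the 37 genes, *Yap1*, the 2 genes with the largest log2 fold change of each uncalled muscle list, the first 2 markers of each other cell type, and the 10 genes most like the muscle mean. *Tpm3*, *Mrc1*, *Mhrt*, *Nisch* and *Ube2c*, and genes named as undetected or in the closing section, were added after their values were seen. A few genes that this rule names are not reported here.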

Additional observations from a re-analysis of the deposited data

How the results depend on the processing

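The number of muscle genes called was 0 in every setting except the likelihood-ratio test, which called 1. The median log2 fold change stayed negative in all settings without the muscle covariate, between -1.21 and -0.38 when each library was left out. The difference in the fast minus slow excess was -1.0 and stayed between -1.42 and -0.75. Whether the replicate numbers pair the mice is not given in the sources used here. Deviations from the group means correlated at -0.33, -0.23 and -0.05 in same-numbered libraries. Such deviations sum to 0 within a genotype, so these values cannot show whether mice were paired. With the replicate block, 0 genes were called over all genes and 0 muscle genes, and no library correlated best with its own number.

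Over all genes, 288 calls became 497 without the count filter, 1568 with the likelihood-ratio test, 854 with voom and quality weights, 571 with the robust fit, 1590 with DESeq2 and 11 with the muscle covariate added after seeing the data, and 0 to 816 when a library was left out. The likelihood-ratio test called 1 of 23 other sarcomere, 3 of 14 calcium handling, 1 of 16 metabolic, 1 of 5 myogenic and 1 of 6 atrophy genes. It called 10.4% of all genes tested. DESeq2 called 1 calcium handling and 2 atrophy genes, against 10.5% of all genes tested. Voom with quality weights called 3 atrophy genes and the robust fit 1 atrophy gene, against 854 and 571 of all 15102 genes tested. The median SD of log2 CPM ran from 0.228 to 1.62 in wildtype and from 0.455 to 0.871 in YAP2-5SA-ΔC skin when libraries were left out.

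The signs of some genes turned. When each library was left out, log2 fold changes ran from -0.42 to 0.13 for *Myh1*, -0.32 to 0.84 for *Myl2*, -0.32 to 0.60 for *Myl3*, -0.27 to 0.43 for *Tnnt1*, -0.62 to 0.025 for *Tnni1*, -0.15 to 0.94 for *Tnnc1* and -0.96 to 0.17 for *Myh8*. *Tnnt1* was -0.094 with voom and quality weights. With the covariate, *Myh1* was 0.39, *Myh2* 0.13, *Myoz1* 0.040, *Tnni1* 0.019, *Mybpc1* 0.13 and *Myh8* 0.12. The 14 shared genes make up the covariate and have no independent value in that fit, in which 7 of them were positive. The cause was not tested. With 3 mice a group and a several-fold spread in muscle content, a difference in muscle genes of the size seen here could not be told from that spread.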

Other observations

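Genes of the muscle atrophy programme, most of which other skin cells also express, were not called by edgeR's quasi-likelihood test, and 4 of the 6 had an unadjusted p below 0.05 (26.3% of all genes tested). *Foxo3*, a transcription factor that drives protein breakdown in starved muscle, had 143, 152 and 166 CPM in wildtype and 124, 114 and 122 CPM in YAP2-5SA-ΔC skin. Its log2 fold change was -0.36 (SE 0.07, FDR = 0.0546, edgeR quasi-likelihood test). *Foxo1* and *Klf15*, which act in the same programme, had log2 fold changes of -0.25 and -0.52 (FDR of 0.062 and 0.0596, edgeR), and with the ubiquitin ligase *Fbxo32* they made up 4 of the 6 genes in which every transgenic library lay below every wildtype library, where 18.2% of all genes tested did. *Trim63*, the ubiquitin ligase of the list that is most restricted to muscle, had 1.92, 9.94 and 7.99 CPM in wildtype and 4.67, 4.71 and 2.37 CPM in YAP2-5SA-ΔC skin, lowest in wildtype replicate 1 and YAP2-5SA-ΔC replicate 3 like the contractile genes.

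*Actc1*, the cardiac actin that developing skeletal muscle also makes, had 0.440, 16.6 and 8.28 CPM in wildtype and 1.28, 0.177 and 0.312 CPM in YAP2-5SA-ΔC skin. Its log2 fold change was -3.80 (SE 1.21, FDR = 0.11, edgeR), a larger value than that of any contractile gene described above, and it rested on wildtype replicates 2 and 3.

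*Ucp1*, the uncoupling protein of brown fat, had 37.3 CPM in wildtype replicate 2 and 72.8 CPM in YAP2-5SA-ΔC replicate 3, against 0.222 to 0.951 CPM in the other 4 libraries. Muscle content was highest in the first of these libraries and lowest in the second. *Cidea*, another brown fat marker that skin also expresses in sebaceous glands, had 19.8, 18.9 and 7.90 CPM in wildtype and 24.6, 31.5 and 44.9 CPM in YAP2-5SA-ΔC skin, and *Dio2* was called (log2 fold change 0.85, FDR = 0.0401, edgeR), where 1.91% of all genes tested were. *Ppargc1a* of the same list had a log2 fold change of -0.53 (SE 0.25, FDR = 0.222, edgeR).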
